A study of Homo sapiens with 9 samples.

Results

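The last exons of protein-coding mRNAs were examined in an eCLIP data set for MDH2, the mitochondrial malate dehydrogenase, from Huh7 cells, a human hepatocyte-derived carcinoma line. The data comprised 9 libraries, namely 3 replicates each of an IP with an antibody against MDH2 (MDH2 IP), of size-matched input (SMI) and of a control IP using isotype-matched IgG (IgG IP). All 3 groups came from UV cross-linked, sonicated and RNase I-treated lysates of Huh7 cells, and the labels name no other treatment or genotype. The SMI was lysate RNA recovered from the same size range without IP, and the IgG IP shows what a non-specific antibody and the beads retain. The IPs took 14 PCR cycles of amplification and the SMI 9, so an effect of amplification cannot be told apart from that of the IP. Cross-link sites were counted in sliding 50-nt windows, moved by 20 nt along each annotated exon or intron.

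For each protein-coding gene on the nuclear chromosomes with at least 3 different exon numbers in the table, the windows of the highest-numbered exon were taken as its last exon. This rule gave 12142 genes of 15447 nuclear protein-coding genes with an exon window (6201 on the plus and 5941 on the minus strand). Their last exons held 856277 of 15767966 windows, or 5.43%, and 1390606 windows lay in the other exons of the same genes. A last exon had a median of 45 windows with a count, 157 had 1 window, and the longest had 1040. The rule depends on how the annotation numbers exons. PABPC1, the cytoplasmic poly(A)-binding protein, had 1 count in its highest-numbered exon over all 9 libraries. SCN1A, a neuronal sodium channel gene, was listed with 1 exon number and is no member. For 5923 last exons (48.8%), the run of window numbers could be placed on GRCh38 through a newer GENCODE release. Of these, 5505 (92.9%) held the last exon of the canonical transcript and 5213 of those held its stop codon.

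The last exon of an mRNA usually carries the end of the coding sequence, the stop codon and most or all of the 3′ UTR, and it ends where the poly(A) tail is added. Ribosomes clear proteins from the coding sequence but normally not from the 3′ UTR, where many RNA-binding proteins and microRNAs act on stability, translation and localisation. Human 3′ UTRs are on average richer in A and U than coding sequence. MDH2 catalyses the last step of the TCA cycle, and several metabolic enzymes have been recovered with RNA although they have no classical RNA-binding domain.

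Short stretches of last exons with called windows are shown first, each of 30 bases on the mRNA strand with GRCh38 coordinates. They were picked by high fold changes or counts and do not stand for all the calls described further on. The first set comprises the windows with the highest log2 fold changes of MDH2 IP over SMI that could be placed. In each, a pair of overlapping windows had the same counts and the windows on either side had at most 1 count in any library, so that the sites lie in the 10 bases in capitals. NIPBL, whose product loads cohesin on chromosomes, had 38, 52 and 53 counts there in MDH2 IP, 0 in each SMI library, and 20, 10 and 3 in IgG IP. FARP1, a guanine nucleotide exchange factor, had 20, 31 and 24 counts in MDH2 IP and 0 in the other 6 libraries. The paper left out regions without input reads, to avoid artificial enrichment, as well as aberrant single peaks. Both windows lack SMI counts and so are of the first kind. Both stretches lie in the 3′ UTR, and the first window of each pair is centred 560 and 4704 nt past the stop codon.
NIPBL chr5:37065447-37065476 (+): tccccaggtaATCTGGTGGAgcgaatactg
FARP1 chr13:98453016-98453045 (+): agactgtgtgTGTCCCTGGAcgggcgcctg

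The second set comprises, for 4 genes, the window with the most MDH2 IP counts among windows that were enriched over SMI together with both neighbours. The capitals mark the 10 bases common to the 3 overlapping windows. GRK2 encodes a kinase of G protein-coupled receptors, APOE the apolipoprotein E of plasma lipoproteins, SPTBN1 a spectrin of the membrane skeleton and SNRNP70 the U1-70K protein of the spliceosome. The GRK2 and SPTBN1 stretches lie in the 3′ UTR and the other 2 in the coding sequence. The SPTBN1 stretch is a run of T with 10% GC, whereas those of APOE and SNRNP70 are rich in G.
GRK2 chr11:67285536-67285565 (+): tttgtaattaTTGTGATTTCccgtggcccc
APOE chr19:44909043-44909072 (+): ggtgaaggagCAGGTGGCGGaggtgcgcgc
SPTBN1 chr2:54668681-54668710 (+): ttttttttttTTTTTAATTTatagagcatt
SNRNP70 chr19:49108265-49108294 (+): aacggggggaGCGGGGCAGTgagcggggca

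The SPTBN1 window had 56, 48 and 37 counts in MDH2 IP, 15, 16 and 15 in SMI, and 14, 5 and 4 in IgG IP. The GRK2 window had 133, 85 and 104 counts in MDH2 IP, 32, 28 and 42 in SMI, and 28, 11 and 9 in IgG IP. Its edgeR log2 fold change over SMI was 1.49 ± 0.27 (SE, adjusted p = 0.0029). The APOE window had 103, 109 and 70 counts in MDH2 IP, 28, 41 and 22 in SMI, and 18, 8 and 7 in IgG IP. The SNRNP70 window had 58, 41 and 36 counts in MDH2 IP, 9, 15 and 13 in SMI, and 13, 12 and 13 in IgG IP. In all 4 windows, which were chosen as enriched over SMI, the MDH2 IP and SMI libraries did not overlap in raw counts. The SMI libraries were on the whole deeper. Relative to the smaller IgG IP libraries, the windows of SNRNP70, SPTBN1 and GRK2 passed as enriched for IgG IP over SMI as well (edgeR log2 fold changes of 2.79, 1.63 and 1.55, adjusted p = 9.1e-07, 0.024 and 0.0023), while that of APOE did not pass (1.20, adjusted p = 0.15). The log2 fold changes of MDH2 IP over IgG IP were −0.87, 0.05, 0.19 and 0.51 in SNRNP70, SPTBN1, GRK2 and APOE, and none of them passed the test.

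The third set shows the opposite case, with windows lower in MDH2 IP than in SMI, chosen by the most SMI counts among those placed against a stop codon. FTL encodes the ferritin light chain, EEF1G a subunit of translation elongation factor 1 and RPL32 a protein of the large ribosomal subunit. The capitals again mark the bases common to 3 called windows. All 3 stretches lie in the coding part of the last exon, whereas 18.1% of the 513 placed lower windows did.
FTL chr19:48966633-48966662 (+): caagaagatgGGTGACCACCtgaccaacct
EEF1G chr11:62559786-62559815 (-): actacgagtcATACACATGGcggaaactgg
RPL32 chr3:12836135-12836164 (-): aaagagctgcCCAACTGGCCatcagagtca

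The FTL window had 121, 119 and 85 counts in MDH2 IP, 261, 332 and 223 in SMI, and 28, 9 and 4 in IgG IP. The EEF1G window had 47, 38 and 33 counts in MDH2 IP, 174, 209 and 152 in SMI, and 12, 5 and 3 in IgG IP. The RPL32 window had 29, 28 and 20 counts in MDH2 IP, 93, 150 and 111 in SMI, and 5, 6 and 2 in IgG IP. The edgeR log2 fold changes of MDH2 IP over SMI were −1.5, −2.35 and −2.35, with adjusted p of 0.00012, 4.6e-07 and 1.5e-06. In each of these windows, which were chosen as lower, the 3 MDH2 IP libraries had fewer counts than any SMI library.

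The fourth set shows windows in which MDH2 IP was lower than IgG IP, chosen by the most IgG IP counts. IGF2 encodes a fetal growth factor, RBM14 an RNA-binding coactivator and SRSF5 a splicing factor of the SR family. The IGF2 stretch lies 2410 nt past the stop codon.
IGF2 chr11:2130562-2130591 (-): tttgttttttTTTTACCCCTccttagcttt
RBM14 chr11:66627011-66627040 (+): agcaacctgcAGCTGAGGTCgccggcgcct
SRSF5 chr14:69771564-69771593 (+): tgggggtgggATTTGGAAGGggggttgggt

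The IGF2 window had 294, 165 and 149 counts in MDH2 IP, 142, 124 and 147 in SMI, and 301, 197 and 123 in IgG IP, although the IgG IP libraries were shallower. The RBM14 window had 56, 22 and 40 MDH2 IP counts and 15, 21 and 21 IgG IP counts, and the SRSF5 window 29, 17 and 17 against 21, 16 and 14. With library size in the fit, the edgeR log2 fold changes of MDH2 IP over IgG IP were −2.68, −1.71 and −2.35 (adjusted p = 3.9e-10, 0.0094 and 6.3e-05).

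The depth of the libraries differed between groups. Non-overlapping windows held 2059768 to 3303883 counts per MDH2 IP library, 2863617 to 3376762 per SMI library and 556278 to 1009886 per IgG IP library. Windows of last exons held 860336 to 1303351, 985534 to 1221680 and 137513 to 284131 window counts, so IgG IP values carry the highest counting error. The last exons took 13.7% to 14.6% of all window counts in MDH2 IP, 11.9% to 12.7% in SMI and 8.43% to 9.66% in IgG IP. All 10 hepatocyte marker mRNAs were detected and summed to a mean of 6112 CPM over all exons in MDH2 IP, to 5716 in SMI and to 2909 in IgG IP. The 7 markers of other cell types summed to 6.84, 4.30 and 1.70 in the same unit. CPM, given further on for last exons, is the window count scaled to the library size after TMM normalization, and a site enters up to 3 overlapping windows. In bulk samples such as these, fewer cells of a type and less RNA per cell cannot be told apart, and neither can more RNA and more cross-linking per RNA.

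Within the member genes, a smaller part of the exon counts came from the last exon in MDH2 IP than in SMI. The last exons took 30.6%, 29.6% and 32.2% of the exon counts in MDH2 IP, a mean of 30.8% ± 1.31 (SD, n = 3). In SMI they took 37.8%, 36.7% and 38.2%, or 37.6% ± 0.766 (SD, n = 3), and in IgG IP 31.9%, 34.2% and 34.0%, or 33.4% ± 1.29 (SD, n = 3). Neither IP group overlapped with SMI (differences of −6.78 and −4.19 percentage points, exact two-sided permutation test, p = 0.1 each). MDH2 IP and IgG IP overlapped (−2.59 percentage points, exact permutation p = 0.2). With 3 libraries against 3, this test cannot give a p below 0.1. IGF2 was the one gene with over 1% of the last-exon counts in any library, with 2.23% to 3.35% of them in IgG IP and 0.327% to 0.402% in the other libraries.

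**Figure D1:**
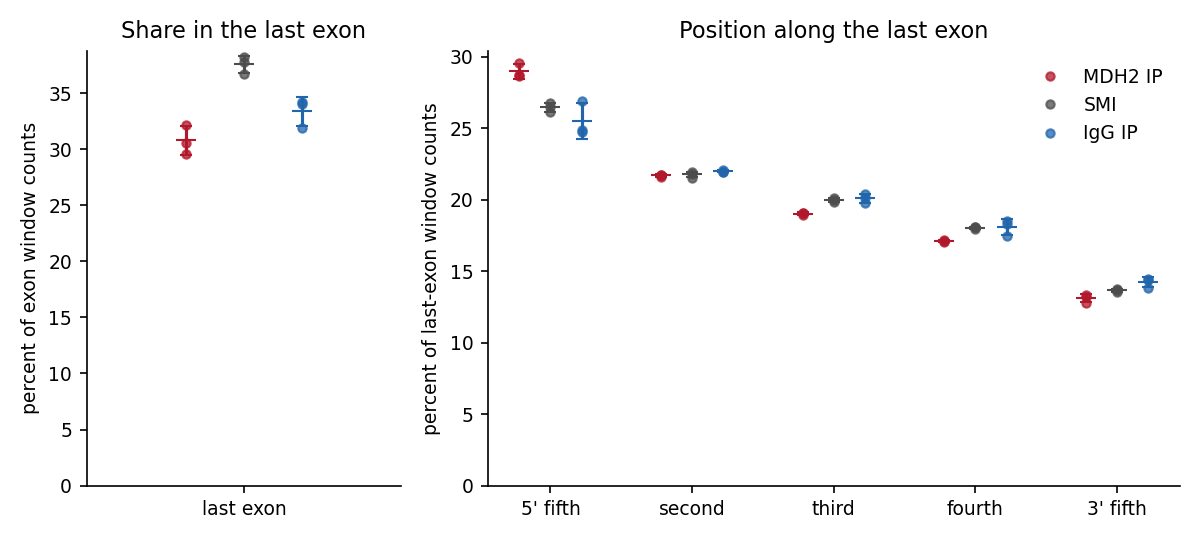
Left, percent of the exon window counts of the 12142 member genes that fell in the last exon, and right, percent of the last-exon counts in each of 5 equal stretches from the 5′ to the 3′ end, for each of the 9 libraries (points), with the group mean and SD (bars). The 3 SMI libraries lie between 36.7% and 38.2%, above all MDH2 IP libraries (29.6% to 32.2%) and all IgG IP libraries (31.9% to 34.2%), and in the first stretch at the 5′ end the MDH2 IP libraries are the 3 highest (28.7% to 29.6%).

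Along the last exon, the counts of MDH2 IP lay nearer to its 5′ end. Over the 10455 last exons that spanned at least 10 windows, each was cut into 5 equal stretches, and the first at the 5′ end held 28.7%, 29.6% and 28.7% of the counts in MDH2 IP, against 26.2%, 26.8% and 26.5% in SMI and 26.9%, 24.7% and 24.9% in IgG IP. MDH2 IP was above both other groups without overlap (exact permutation p = 0.1 each), while IgG IP and SMI overlapped (exact permutation p = 0.4). The last stretch at the 3′ end held 13.1% ± 0.301 in MDH2 IP, against 13.7% ± 0.109 in SMI and 14.2% ± 0.358 in IgG IP (SD, n = 3 each). These 3 groups did not overlap either (differences of −0.566 and −1.11 percentage points for MDH2 IP, exact permutation p = 0.1 each).

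Measured from the stop codon in the placed last exons, the excess of MDH2 IP lay in the coding part and the first 500 nt of the 3′ UTR. The coding part held 18.9%, 20.5% and 19.4% of the counts in MDH2 IP, 15.1%, 16.0% and 15.6% in SMI, and 16.7%, 13.8% and 14.7% in IgG IP. In the first 200 nt past the stop codon the means were 16.1% ± 0.479, 13.8% ± 0.0749 and 13.8% ± 0.798 (SD, n = 3 each). MDH2 IP lay above both other groups in these zones with no overlap (exact permutation p = 0.1 each), and IgG IP overlapped with SMI (exact permutation p = 0.6 and 0.8). Between 200 and 500 nt MDH2 IP had a mean of 16.5% ± 0.456, SMI one of 15.0% ± 0.107 and IgG IP one of 15.5% ± 0.169 (SD, n = 3 each), and here IgG IP too lay above SMI, with no overlap between any pair of groups (exact permutation p = 0.1 each). Between 500 and 1000 nt the 3 groups overlapped, with means of 16.6%, 16.8% and 16.9%. Past 2000 nt the order was turned, with 15.6%, 15.3% and 14.6% in MDH2 IP, 20.5%, 20.5% and 20.2% in SMI, and 19.3%, 20.6% and 19.8% in IgG IP. The last 200 nt before the annotated end, where the poly(A) signal lies, took 8.73% ± 0.522 of the 3′ UTR counts in MDH2 IP, against 7.73% ± 0.088 in SMI and 8.16% ± 0.202 in IgG IP (SD, n = 3 each).

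**Figure D2:**
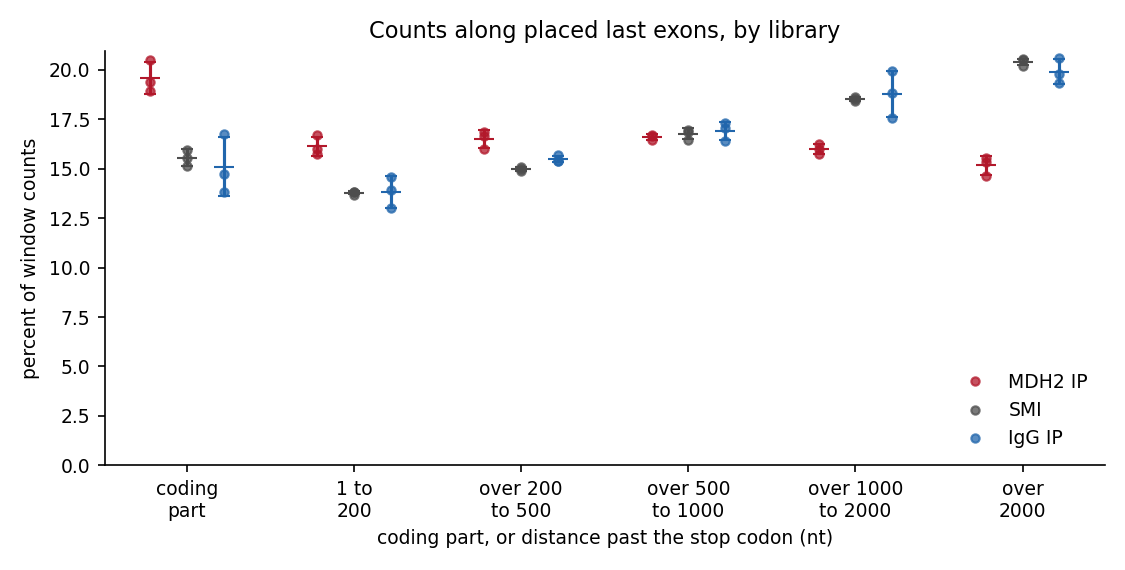
Percent of the window counts of placed last exons by distance from the stop codon (coding part, then classes of nt into the 3′ UTR), per library (points) with group mean and SD. MDH2 IP is above SMI and IgG IP in the coding part (mean 19.6% against 15.5% and 15.1%) and below both past 2000 nt (15.2% against 20.4% and 19.9%).

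Set against all exon counts of the placed genes, the coding part of the last exon took 6.59% ± 0.244 in MDH2 IP, against 6.41% ± 0.134 in SMI and 5.51% ± 0.326 in IgG IP (SD, n = 3 each). MDH2 IP and SMI overlapped here (exact permutation p = 0.3), and IgG IP lay below both (exact permutation p = 0.1 each). The 3′ UTR part took 27.1% ± 1.22, 34.8% ± 0.736 and 31.1% ± 1.73, with no overlap between any pair of groups. The smaller share of the last exon in MDH2 IP than in SMI was thus found in its 3′ UTR part. Gene by gene, edgeR tests of a change in the 3′ UTR part relative to the other exons of the same gene called 1110 of 4046 genes lower (27.4%) and 50 higher in MDH2 IP than in SMI, with a median log2 difference of −0.51. The same test for the coding part called 15 of 2228 lower and 4 higher, with a median of −0.13. Within last exons, the 3′ UTR part fell relative to the coding part in 72 of 2097 genes and rose in 2, and 71.6% of the log2 differences were below 0 (median −0.38). Without SMI replicate 1 or 2, the coding part was lower in 2 genes each, and the 3′ UTR part fell relative to the coding part in 39 and 38. Without SMI replicate 3, 9 coding parts were lower.

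Summed over its windows, a last exon was tested where 3 or more of the 6 libraries compared had at least 10 counts. Between MDH2 IP and SMI, 906 of 8522 tested last exons were higher (10.6%) and 1153 lower (13.5%) at an edgeR adjusted p of at most 0.05, with a median log2 fold change of −0.04. Over all 35821 features tested, which include other exons and introns, the shares were 12.6% higher and 18.3% lower. Of the same genes, 20.9% of the sums over the other exons were higher and 1.28% lower (median 0.39), and 7.72% of the intron sums were higher and 37.0% lower (median −0.51). Last exons thus stood between the other exons and the introns of their genes. The MDH2 IP and SMI libraries did not overlap in 893 of the last exons called higher and 1136 of those called lower. The calls rest on the same counts, so this is no separate support. With library totals in place of TMM scaling, 1566 were higher and 632 lower, which moves the share of higher calls from 44% to 71.2% and the median from −0.04 to 0.20. With the replicate number as a block, 1647 were higher and 1891 lower. Without SMI replicate 1, 432 were higher and 676 lower, and without MDH2 IP replicate 1, 655 were lower.

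Of the last exons higher in MDH2 IP than in SMI with a level above the median, STRADA had the highest log2 fold change. STRADA encodes a pseudokinase that activates the kinase LKB1. Its last exon measured 30.1, 43.6 and 40.7 CPM in MDH2 IP, 6.37, 5.57 and 8.20 in SMI, and 41.5, 24.3 and 35.7 in IgG IP. Both IP groups lay far above SMI and overlapped with each other. The edgeR log2 fold change over SMI was 2.49 ± 0.24 (SE, adjusted p = 0.00011) for MDH2 IP and 2.37 ± 0.31 (SE, adjusted p = 0.00016) for IgG IP. The last exon of STRADA took 83.6% to 93.9% of its exon counts in MDH2 IP and 48.6% to 56.5% in SMI.

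Both IP groups were also above SMI for TBL3, a component of the small-subunit processome of the nucleolus, and for ZBTB7A, a transcriptional repressor. TBL3 measured 15.9, 14.9 and 25.8 CPM in MDH2 IP, 4.37, 4.69 and 4.62 in SMI, and 31.7, 31.9 and 64.7 in IgG IP. It was higher in MDH2 IP than in SMI (log2 fold change 2.03 ± 0.27, SE) and lower than in IgG IP (−1.08 ± 0.33, edgeR adjusted p = 0.042). ZBTB7A measured 35.1, 32.6 and 48.1 CPM in MDH2 IP, 11.9, 10.8 and 10.6 in SMI, and 36.2, 40.9 and 63.2 in IgG IP, so that both IP groups again stood above SMI. NIPBL, shown above for its 10-base stretch, had log2 fold changes over SMI of 2.11 ± 0.30 in MDH2 IP and 2.10 ± 0.41 in IgG IP (SE).

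GIGYF1 and TNRC6A rose over both controls. GIGYF1 belongs to a translational repressor complex with the cap-binding protein 4EHP, and TNRC6A is a GW182 protein that joins Argonaute to the silencing machinery. GIGYF1 measured 128, 132 and 106 CPM in MDH2 IP, 37.0, 46.8 and 23.3 in SMI, and 55.1, 84.3 and 87.7 in IgG IP. It rose by 1.77 ± 0.24 over SMI and by 0.77 ± 0.23 over IgG IP on the log2 scale (SE, edgeR adjusted p = 0.00068 and 0.038). TNRC6A measured 52.1, 37.3 and 47.4 CPM in MDH2 IP, 14.4, 10.2 and 15.8 in SMI, and 30.2, 18.5 and 24.5 in IgG IP, with log2 fold changes of 1.76 ± 0.22 and 0.96 ± 0.27 (SE). The other 2 of the 8 named by size were ARHGEF10L, a guanine nucleotide exchange factor (1.95 ± 0.35, SE), and ENGASE, a cytosolic enzyme that trims N-glycans (1.87 ± 0.32, SE).

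Among the last exons that were lowest relative to SMI were those of ZNF587B (log2 fold change −2.03), TAF1D of the RNA polymerase I initiation factor (−2.0), TWF1, an actin-binding twinfilin (−2.0), KITLG, the ligand of the receptor KIT (−1.94), and EGLN1, the prolyl hydroxylase of hypoxia-inducible factor (−1.86). The best window of ZNF587B has the same counts as a window of another identifier, as had those of 137 last exons, so its value is uncertain. TMEM123 measured 25.3, 23.8 and 20.5 CPM in MDH2 IP, 71.9, 84.6 and 84.1 in SMI, and 29, 24.3 and 27.5 in IgG IP (−1.79 ± 0.17 over SMI, SE, edgeR adjusted p = 0.00012). RPS23, a protein of the small ribosomal subunit, measured 18.3, 19.7 and 19.5 CPM in MDH2 IP, 59.4, 90.2 and 52.9 in SMI, and 22.6, 23.6 and 14.1 in IgG IP (−1.82 ± 0.22 over SMI, SE, edgeR adjusted p = 0.00049). In both, the SMI libraries were the 3 highest and the 2 IP groups overlapped.

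**Figure D3:**
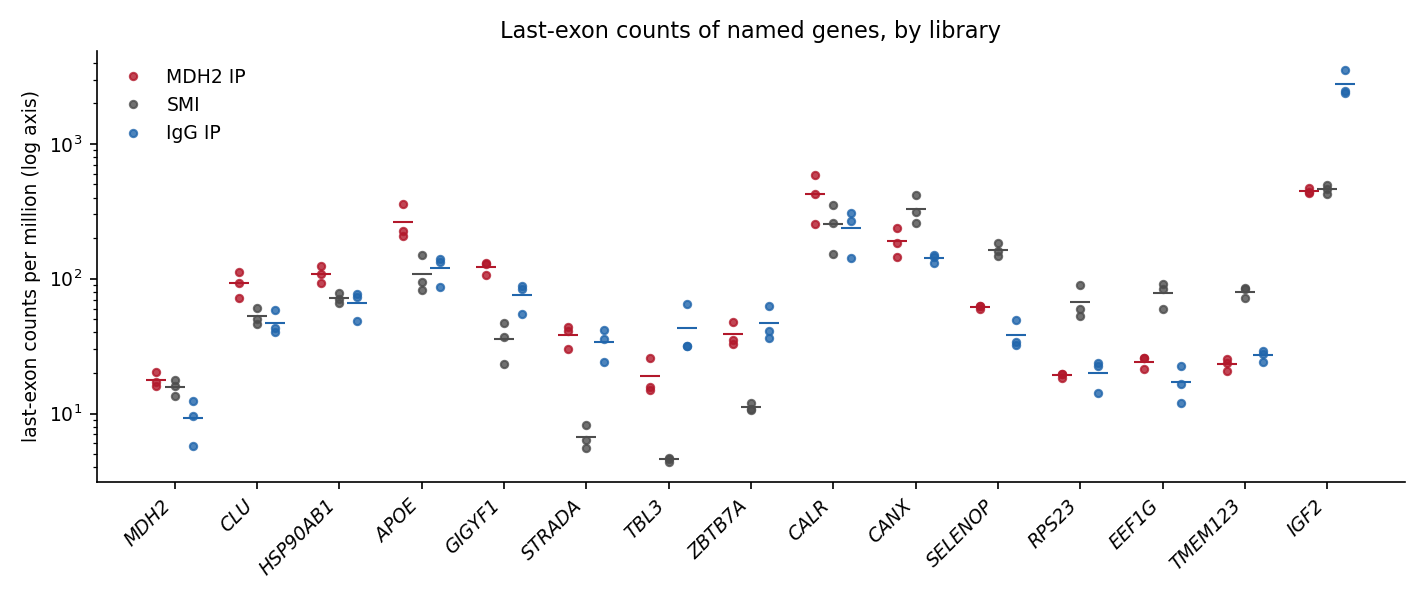
CPM of named last exons on a log axis in each library (points), with a line at the group mean, for MDH2 IP, SMI and IgG IP. STRADA, TBL3 and ZBTB7A are high in both IP groups, CLU, HSP90AB1 and APOE are highest in MDH2 IP, and TMEM123, RPS23 and EEF1G in SMI, whereas IGF2 is highest in IgG IP.

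The last exon of the MDH2 mRNA itself measured 20.2, 16.1 and 17.1 CPM in MDH2 IP, 13.4, 16.0 and 17.9 in SMI, and 12.4, 5.75 and 9.67 in IgG IP. The MDH2 IP values overlapped with those of SMI and lay above those of IgG IP, but neither comparison passed the test (log2 fold changes of 0.17 ± 0.21 and 0.98 ± 0.34, SE, edgeR adjusted p = 0.56 and 0.068). CLU, which encodes the secreted chaperone clusterin, measured 71.8, 113 and 92.4 CPM in MDH2 IP, 50.4, 61.0 and 46.0 in SMI, and 58.5, 40.2 and 43.1 in IgG IP. It was higher than both controls (0.81 ± 0.20 and 1.03 ± 0.25, SE, edgeR adjusted p = 0.012 and 0.016). HSP90AB1, the constitutive cytosolic HSP90, measured 108, 93.1 and 125 CPM in MDH2 IP, 70.2, 65.9 and 78.1 in SMI, and 76.6, 48.5 and 73.6 in IgG IP. It too was higher than both (0.60 ± 0.17 and 0.79 ± 0.23, SE, edgeR adjusted p = 0.02 and 0.038). Relative to the other exons of their genes, the last exons of CLU and HSP90AB1 did not pass the test (log2 differences over SMI of −0.19 and −0.21, edgeR adjusted p = 0.35 and 0.22).

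The last exons with the most MDH2 IP counts did not form one class. SCD, the stearoyl-CoA desaturase, measured 659, 661 and 584 CPM in MDH2 IP, 775, 729 and 668 in SMI, and 627, 556 and 490 in IgG IP, and passed neither test. KDM2A, a histone H3K36 demethylase, measured 403, 445 and 449 CPM in MDH2 IP, 215, 221 and 237 in SMI, and 308, 302 and 331 in IgG IP. It was higher than SMI (0.94 ± 0.14, SE, edgeR adjusted p = 0.0011), and its IgG IP values lay between the other groups without overlap. The calreticulin gene CALR measured 427, 584 and 253 CPM in MDH2 IP, 259, 353 and 152 in SMI, and 270, 305 and 142 in IgG IP, and did not pass against SMI (0.72 ± 0.32, SE, edgeR adjusted p = 0.11). Its value was higher in MDH2 IP than in the equally numbered SMI library in 3 of 3 pairs, and with the replicate number as a block it passed (0.72).

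When the last exon is set against the other exons of the same gene, library scaling and the level of the mRNA drop out of the difference. Which genes can be tested and called still depends on their counts. Between MDH2 IP and SMI, 1812 of 8102 genes had a lower last exon relative to their other exons (22.4%) and 115 a higher one (1.42%), with a median log2 difference of −0.42 and 76.0% of genes below 0. Among genes whose last exon and other exons were both above the median level, the most negative were DR1, a repressor of transcription initiation (−2.12 ± 0.27), SERBP1, an mRNA- and ribosome-binding protein (−2.06 ± 0.17), the small GTPase RAB10 (−1.99 ± 0.24), SERP1 of the ER (−1.94 ± 0.24) and CCDC50 (−1.93 ± 0.23; SE). In SERBP1 the last exon took 24.2%, 18.9% and 28.0% of the exon counts in MDH2 IP, 55.1%, 56.1% and 57.6% in SMI, and 41.4%, 37.5% and 23.8% in IgG IP. Its other exons had a mean of 105 CPM in MDH2 IP and 61.2 in SMI, whereas the sum of its last exon was lower (−1.27 ± 0.22, SE). In the same genes, the largest differences the other way, besides NIPBL and TBL3, were those of FUT3, a fucosyltransferase (1.40 ± 0.28), the peptidase DPP9 (1.29 ± 0.24) and the cell-cycle factor E2F1 (1.11 ± 0.26; SE). FUT3 had 69.6% to 80.7% of its exon counts in the last exon in MDH2 IP and 47.3% to 62.5% in SMI. Without SMI replicate 2, 72 genes had a higher last exon, and without MDH2 IP replicate 3, 74.

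At the level of single windows, calls were fewer in last exons than in the other exons of the same genes for enrichment, and more for depletion. Of 12402 tested last-exon windows, 265 were enriched in MDH2 IP over SMI (2.14%) and 1011 were lower (8.15%), at a one-sided edgeR adjusted p of at most 0.05 and a change of at least 1 on the log2 scale. Over all tested windows 4.07% were enriched and 9.92% lower, and in the other exons of the same genes 3.51% and 3.66%. The enriched windows lay in 110 genes, of which 56 had a single one, and the lower windows in 247 genes, with 3 genes holding both. Chosen after their values were seen, APOE and GIGYF1 had the most enriched windows (14 each), followed by GRK2 (10), EIF4G1 and SNRNP70 (9 each). CANX had the most lower windows (46), followed by SELENOP (37), ARHGAP5 (26) and RBM3 (25). The 4 genes with the most lower windows include calnexin, an ER chaperone of glycoproteins, and selenoprotein P, the selenium carrier of plasma. With library totals in place of TMM scaling, 1803 windows were enriched and 250 lower, which moves the share of enriched calls from 20.8% to 87.8%. With the replicate number as a block, 604 were enriched. The count of enriched windows fell to 21, 109 and 106 without MDH2 IP replicate 1, 2 or 3, and to 53, 125 and 118 without SMI replicate 1, 2 or 3. The count of lower windows fell to 477 and 663 without MDH2 IP replicate 1 or 2, and to 273, 389 and 482 without SMI replicate 1, 2 or 3.

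The 10-base stretch of NIPBL had at least 59.2-fold more counts in MDH2 IP, relative to library size, than the limit of 3 counts over the SMI group allows, and that of FARP1 at least 31-fold. FARP1 was also at least 7.12-fold above the limit of the IgG IP group, whose 3 libraries were at 0. Over IgG IP, NIPBL had a log2 fold change of −0.39, and in a window of ARL6, a small GTPase of cilia with 42, 30 and 27 counts in MDH2 IP, 0 in SMI and 14, 4 and 4 in IgG IP, it was also −0.39. These bounds cover counting error only, and they concern windows without SMI counts, a kind that the paper left out. Over the 265 enriched windows, the median log2 fold change over SMI, by which they were chosen, was 1.75, and that over IgG IP was 0.25. Both values use the same MDH2 IP libraries. Over IgG IP, 162 of the 265 were above 0 and 9 were called lower, beside 4.0% called lower of all last-exon windows tested. All 6622 last-exon windows tested over IgG IP had a median of 0.15, so most of them lay above 0 as well. For IgG IP over SMI, 54 of the 265 could be tested and 26 were enriched, beside 5.37% of all last-exon windows. That comparison shares the SMI libraries by which they were chosen. A window with few SMI counts could be tested only where its IgG IP counts were high enough. The 2 shares therefore cannot be set against each other.

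Ribosomal protein mRNAs had the lowest median of the gene groups examined. Of 48 tested last exons, 22 were lower and 0 higher in MDH2 IP than in SMI, beside 13.5% and 10.6% of all last exons. The median log2 fold change was −0.69, beside −0.04 for all last exons. The comparison within genes gave 18 lower and 4 higher of 47, beside 22.4% and 1.42% of all genes tested. The values of RPS23 are given above. RPL14 measured 81.3, 87.9 and 83.9 CPM in MDH2 IP, 111, 147 and 107 in SMI, and 89.4, 94.5 and 59.5 in IgG IP (−0.53 ± 0.17 over SMI, SE, edgeR adjusted p = 0.034). In IgG IP, 23 of 47 were lower than in SMI and 0 higher (median −1.05), beside 13.2% and 3.95% of all last exons (median −0.53). MDH2 IP was higher than IgG IP in 4 of 43 and lower in 0, beside 5.74% and 0.696% of all last exons. The medians were 0.55 and 0.51. For the translation factors, 7 of 30 were lower than SMI and 3 higher (median −0.29), beside 13.5% lower and 10.6% higher of all last exons. EEF1G measured 21.4, 25.7 and 25.7 CPM in MDH2 IP, 84.1, 91.8 and 59.8 in SMI, and 22.6, 16.6 and 11.9 in IgG IP (−1.70 ± 0.20 over SMI, SE, edgeR adjusted p = 0.00046). EIF3C, a subunit of initiation factor 3, rose by 2.12 ± 0.41 (log2, SE), an uncertain value because a near-identical gene copy can take part of its reads.

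Secreted plasma proteins of the liver had the highest median of the gene groups (0.30), with 5 of 24 last exons higher than SMI and 3 lower, beside the same 10.6% and 13.5%. APOE measured 208, 358 and 225 CPM in MDH2 IP, 94.1, 150 and 82.8 in SMI, and 140, 133 and 86.2 in IgG IP. It rose over SMI (1.27 ± 0.26, SE, edgeR adjusted p = 0.0048) and over IgG IP (1.20 ± 0.26, SE, edgeR adjusted p = 0.01). TTR, the thyroxine carrier transthyretin, fell by 0.65 relative to SMI, and APOB, the structural protein of low-density lipoproteins, did not pass that test (−0.32 ± 0.18, SE, edgeR adjusted p = 0.2). Over IgG IP, 6 of 22 plasma protein last exons were higher and 0 lower, with a median of 0.81, beside 5.74% higher and a median of 0.51 for all last exons.

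Selenoprotein mRNAs carry in their 3′ UTR the element that recodes UGA as selenocysteine. Of 14 tested last exons, 5 were lower than SMI and 2 higher (median −0.32), beside 13.5% and 10.6% of all last exons. SELENOP measured 59.5, 62.7 and 63.0 CPM in MDH2 IP, 147, 183 and 161 in SMI, and 49.4, 33.8 and 32.0 in IgG IP, with a log2 fold change over SMI of −1.41 ± 0.16 (SE, edgeR adjusted p = 0.00032). SELENOS rose over SMI (1.38 ± 0.32, SE). Of 15 tested mRNAs with AU-rich elements, which recruit decay factors, 3 were higher and 1 lower (median 0.20, beside −0.04 for all last exons). Relative to their other exons, 5 of the 15 were lower and 1 higher, beside 22.4% and 1.42% of all genes tested. The median there was −0.53, beside −0.42. TFRC, the transferrin receptor, measured 56.0, 56.8 and 65.8 CPM in MDH2 IP, 127, 111 and 146 in SMI, and 68.3, 63.9 and 44.6 in IgG IP (−1.11 ± 0.17 over SMI, SE, edgeR adjusted p = 0.0011). VEGFA, the endothelial growth factor, rose over SMI in both MDH2 IP (0.96 ± 0.24) and IgG IP (1.15 ± 0.25; SE).

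For chaperones and glycolysis enzymes, more last exons were called lower within the gene than as sums. This held for all last exons too, where 13.5% of the sums were lower and 10.6% higher. Within the gene, 22.4% of all last exons were lower and 1.42% higher (median −0.42). Of 19 ER chaperones 1 was higher and 1 lower, but 10 were lower relative to their other exons and 0 higher. CANX measured 185, 237 and 146 CPM in MDH2 IP, 312, 421 and 259 in SMI, and 144, 151 and 132 in IgG IP, with log2 differences over SMI of −0.81 ± 0.22 for the sum and −1.28 ± 0.12 within the gene (SE, edgeR adjusted p = 0.018 and 4.2e-09). The figures were 2 and 2 of 20 for cytosolic chaperones, with 10 lower and 0 higher within the gene. Glycolysis genes gave 1 and 1 of 14, with 8 lower and 0 higher within the gene, among them ENO1 (−0.80 ± 0.12, SE). For the TCA cycle and malate-aspartate shuttle, to which MDH2 belongs, 1 of 20 was higher (IDH3B, 0.67) and 1 lower (SDHC, −0.71). The median was 0.08, beside −0.04 for all last exons. Over IgG IP 3 of 18 were higher and 1 lower, beside 5.74% and 0.696% of all last exons. Within the gene, 3 of 20 were lower than SMI and 0 higher (median −0.20). CS, the citrate synthase, measured 36, 32.7 and 49.3 CPM in MDH2 IP, 46.4, 38.4 and 44.1 in SMI, and 22.3, 16.0 and 27.5 in IgG IP (0.92 ± 0.28 over IgG IP, SE, edgeR adjusted p = 0.041). Of 53 nuclear-encoded respiratory chain genes, 2 were higher than SMI and 5 lower (median −0.20), and 15 were lower and 2 higher within the gene (median −0.55).

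Compared with IgG IP, last exons were more often higher than lower. Of 7468 tested, 429 were higher (5.74%) and 52 lower (0.696%), with a median log2 fold change of 0.51. Over all 32113 features tested the shares were 5.31% and 10.4% with a median of 0.11, and the other exons of the same genes gave 12% and 1.19% with a median of 0.56. With library totals in place of TMM scaling, 1300 were higher and 31 lower, and the median rose to 0.81. Without MDH2 IP replicate 1, 2 or 3, 56, 138 and 214 were higher, and without MDH2 IP replicate 1 or 2, 21 and 26 were lower. TGFBI, an extracellular matrix protein, measured 29.5, 31.3 and 36.4 CPM in MDH2 IP, 20.5, 25.8 and 19.4 in SMI, and 7.17, 7.02 and 6.69 in IgG IP. No pair of groups overlapped. Relative to IgG IP, the log2 fold change was 2.28 ± 0.30 (SE, edgeR adjusted p = 0.00059). Others named by size were the kinase SLK (2.33 ± 0.41), CFAP44 of the flagellar axoneme (2.25 ± 0.59) and ACAD11, an acyl-CoA dehydrogenase (2.19 ± 0.67; SE).

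The last exons lower in MDH2 IP than in IgG IP were led by ADARB1, an adenosine deaminase that edits RNA. ADARB1 measured 15.4, 10.4 and 12.1 CPM in MDH2 IP, 7.37, 9.72 and 8.09 in SMI, and 86.4, 126 and 87.7 in IgG IP, with a log2 fold change of −2.90 ± 0.27 (SE, edgeR adjusted p = 8.7e-05). IGF2 measured 431, 439 and 468 CPM in MDH2 IP, 495, 425 and 460 in SMI, and 2392, 3510.2 and 2477 in IgG IP. IGF2 overlapped between MDH2 IP and SMI and was far higher in IgG IP (−2.57 ± 0.23, SE, edgeR adjusted p = 7.1e-05). ARFRP1, a small GTPase of the trans-Golgi, measured 39.1, 38.7 and 47.8 CPM in MDH2 IP, 15.7, 15.5 and 16.9 in SMI, and 143, 179 and 335 in IgG IP, and so differed between each pair of groups. FAM98B, of the tRNA ligase complex, was also lower (−2.32 ± 0.35, SE), as was INS-IGF2 (−2.31 ± 0.23, SE), a read-through gene whose last exon overlaps that of IGF2.

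No last-exon window was enriched in MDH2 IP over IgG IP. The edgeR test called 0 of 6622 (0.0%), DESeq2 called 0, and 625 had an unadjusted one-sided p under 0.05, while 45 of 30424 windows of all kinds (0.148%) were enriched. With library totals in place of TMM scaling, 359 last-exon windows were enriched and 143 lower. Under TMM, 265 were lower (4.0%, beside 4.77% of all windows), in 37 genes, and 163 and 170 without MDH2 IP replicate 1 or 2. Of these, 135 lay in IGF2, 17 in INS-IGF2 and 13 in RBM14, the genes with the most by a count made after the values were seen. Relative to the other exons of the gene, 78 of 7001 last exons were higher (1.11%) and 59 lower (0.843%) than in IgG IP, and 49.8% of the differences were below 0 (median 0.00). Among genes with both parts above the median level, the higher ones were led by NME4, a mitochondrial nucleoside diphosphate kinase (2.36 ± 0.30), PPP1R12C, a subunit of myosin phosphatase (2.32 ± 0.50), and YY1AP1 (2.22 ± 0.36; SE). The last exon of NME4 took 29% to 37.4% of its exon counts in MDH2 IP, 40.5% to 46.5% in SMI and 8.5% to 9.4% in IgG IP. Lower ones were led by ADARB1 (−3.23 ± 0.37), ZFYVE9 (−2.21 ± 0.47) and NBR1 (−2.14 ± 0.46; SE). These counts moved by over 1.5-fold when single libraries were left out, with 11, 13 and 9 higher and 6, 5 and 5 lower without MDH2 IP replicate 1, 2 or 3. Without IgG IP replicate 1 there were 137 higher and 109 lower, and without IgG IP replicate 2, 35 and 24.

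The 2 parts of the last exon differed in the comparison with IgG IP. Relative to the other exons of the gene, the coding part of the last exon was higher in 28 of 1506 genes (1.86%) and lower in 4, with a median log2 difference of 0.39 and 30.9% of genes below 0. Without single MDH2 IP libraries, 592 to 609 genes could be tested and the median was 0.07 to 0.16. The 3′ UTR part was higher in 19 of 3444 and lower in 14, with a median of −0.04. Within last exons, the median of the 3′ UTR part against the coding part was −0.37, and edgeR called 2 of 1355 lower and 0 higher. Windows past 1000 nt against those in the first 500 nt of the 3′ UTR gave a median of −0.26, with 0 of 1190 called and 85 lower and 24 higher at an unadjusted p under 0.05. Without single MDH2 IP libraries fewer genes could be tested in each of these fits. The higher coding parts then numbered 4 to 7, and the 3′ UTR part was higher in 0 to 1 genes and lower in 1, with medians of −0.16 to −0.07. The median of the 3′ UTR part against the coding part was −0.27 to −0.14 and that of distant against near windows −0.17 to −0.11. Without IgG IP replicate 1, 30 3′ UTR parts were higher and 32 lower, and 21 were lower relative to the coding part, while without IgG IP replicate 2, 9 were higher and 5 lower.

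Last exons were also more often lower than higher in IgG IP than in SMI. Of 7671 tested last exons, 303 were higher (3.95%) and 1010 lower (13.2%), with a median log2 fold change of −0.53, beside 12% higher and 7.06% lower over all features (median −0.13) and 7.89% and 3.42% for the other exons of the same genes. ADARB1, ARFRP1 and ZFYVE9, a receptor-anchoring protein of TGF-β signalling, led the higher ones with a level above the median (3.61, 3.79 and 3.58). GTPBP10, a GTPase of mitochondrial ribosome assembly, BROX and ANGEL2 led the lower ones (−3.62, −3.07 and −3.01). Relative to the other exons, 459 of 7081 last exons were lower (6.48%) and 61 higher (0.861%), with a median of −0.44 beside −0.42 for MDH2 IP over SMI. These comparisons share the SMI libraries. The 3′ UTR part was lower relative to the other exons in 280 of 3579 genes (7.82%, median −0.48), and the coding part in 48 of 1371 (3.5%, median −0.49), whereas the coding part had a median of −0.13 in MDH2 IP over SMI. Here a gene could pass the filter through the 3 SMI libraries alone. Without SMI replicate 1, 2 or 3, the coding part had a median of −0.21, −0.20 and −0.17 for IgG IP over SMI across 569 to 582 genes, nearer to the value of MDH2 IP. It was lower in 6, 2 and 8 genes, and the 3′ UTR part was lower in 64, 51 and 55. Without IgG IP replicate 1, 91 coding parts were lower. Of 6598 last-exon windows, 354 were enriched (5.37%) in 71 genes and 158 lower (2.39%), beside 6.17% and 6.34% of all windows and 3.47% and 2.07% in the other exons of the same genes. With library totals, 214 were enriched, which moves the share of enriched calls from 69.1% to 19.98%. Without SMI replicate 1, 2 or 3, 199, 200 and 205 windows were enriched, 129, 177 and 194 last exons were higher, 390, 501 and 438 lower, and 19, 11 and 17 higher and 124, 98 and 94 lower relative to the other exons. Without IgG IP replicate 1, 108 were higher relative to the other exons.

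The GC content of the last exon moved with the comparisons of both IPs with SMI. The canonical last exons of the 12142 members had a median of 43.7% GC and a length of 1570 nt, against 54.1% GC in the other exons, and 90.1% of genes had the lower GC in the last exon. Across 8522 last exons, the log2 fold change of MDH2 IP over SMI rose with GC (Spearman's rho 0.68, Pearson's r 0.66), and across 7671 that of IgG IP over SMI did too (0.60 and 0.51). For MDH2 IP over IgG IP, the values were −0.04 and −0.06 across 7468. Last exons are not independent replicates, they share libraries and counts of neighbouring windows, and no test was made. Below 35% GC, 5 of 1352 last exons were higher and 418 lower than SMI (median −0.65), and at 60% or more 272 of 770 were higher and 0 lower (median 0.76). The medians of IgG IP over SMI in these classes were −1.09 and 0.48, and those of MDH2 IP over IgG IP 0.54 and 0.40. Last exons called higher over SMI had a median of 57.1% GC, those called lower 36.2% and a median length of 3528 nt, and those not called 44.1%. Among the genes named above, the last exons of TBL3, APOE and GIGYF1 have 63.7%, 71.0% and 56.9% GC, and those of TMEM123, TWF1 and SERBP1 32.0%, 32.4% and 34.8%. NIPBL, with 33.4%, lies on the other side.

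**Figure D4:**
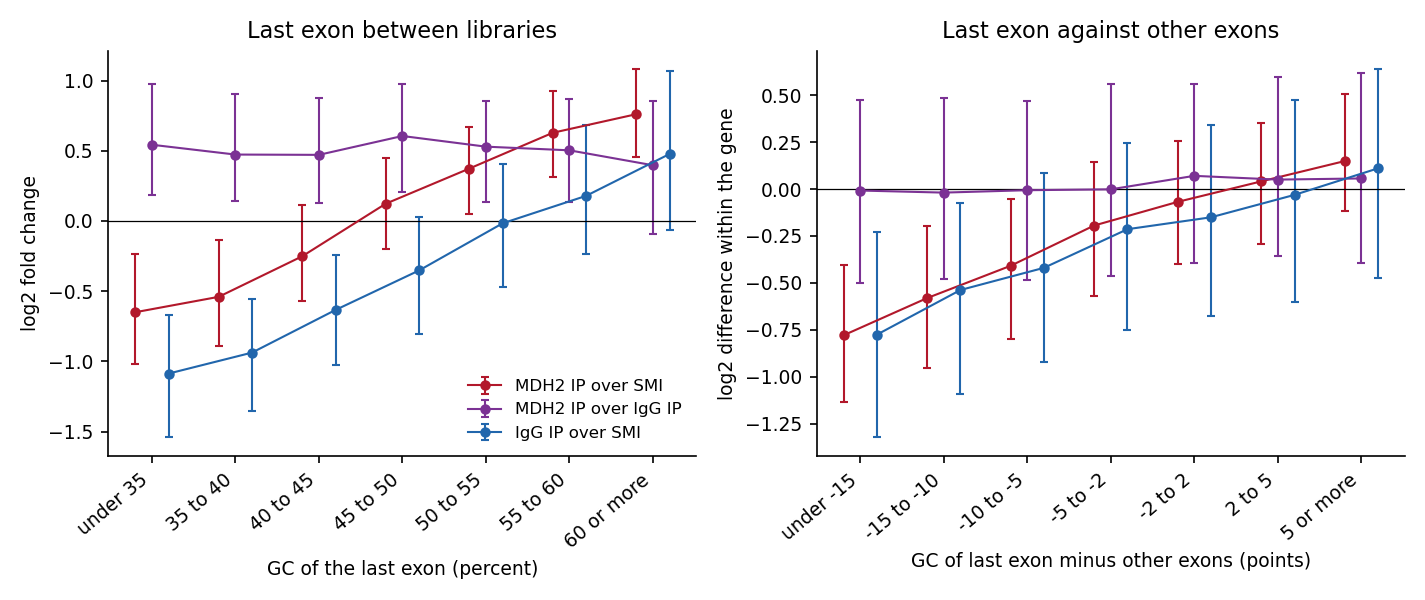
Medians (points, with the interquartile range over last exons as bars) for the 3 comparisons, left of the log2 fold change of summed last exons by the GC percent of the canonical last exon, and right of the log2 difference between last and other exons of a gene by the difference in their GC in percentage points. MDH2 IP over SMI goes from −0.65 below 35% GC to 0.76 at 60% or more and IgG IP over SMI from −1.09 to 0.48, while MDH2 IP over IgG IP stays between 0.40 and 0.61. On the right, MDH2 IP over SMI starts at −0.78 in the class with the lowest GC relative to the other exons.

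The relation with GC was seen at all lengths, with rho between 0.53 and 0.72 for MDH2 IP over SMI in 4 classes of length. The difference between last and other exons of a gene also moved with the difference in their GC (rho 0.39 across 8099 genes for MDH2 IP over SMI, 0.25 across 7079 for IgG IP over SMI and 0.03 across 6999 for MDH2 IP over IgG IP). Where the last exon had at least 15 percentage points less GC than the other exons, 38.4% of last exons were lower in MDH2 IP relative to SMI (median −0.78). Where the difference was under 2 points in size, 5.62% were lower (median −0.07). Length moved with the difference as well, from a median of −0.29 below 500 nt to −0.85 at 8000 nt or more, where 53.4% were lower. In MDH2 IP over IgG IP the medians went from 0.07 to −0.46 over the same lengths, and in IgG IP over SMI from −0.46 to −0.36. The part of GC in the differences between IP and SMI was not tested.

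Single windows differed in GC content too. Of the last-exon windows placed, 135 enriched over SMI had a median of 64% GC and 37.0% lay in coding sequence, 513 lower ones had 40% GC and 18.1% lay in coding sequence, and 5777 not called had 52% GC and 21.8% coding. Windows of 60% to under 70% GC took 19.6%, 21.2% and 21.2% of the placed counts in MDH2 IP, 14.1%, 13.7% and 13.7% in SMI, and 20.04%, 20.3% and 22.2% in IgG IP. Windows of 30% to under 40% GC took a mean of 17.4%, 24.5% and 17.1%. Both IP groups stood apart from SMI and overlapped with each other in these classes.

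Split by classes of window GC, the mean shares of MDH2 IP and IgG IP differed by position. The shares were pooled over genes, so the genes recovered in each group enter them, and the part of this was not tested. In coding windows, the log2 ratio of the mean share in MDH2 IP over that in IgG IP was 0.65, 0.46, 0.51, 0.42, 0.35 and 0.07 from the lowest class of GC to the highest. In the 3′ UTR up to 1000 nt past the stop codon it lay between −0.03 and 0.16, and past 1000 nt it was −0.14, −0.18, −0.24, −0.40, −0.51 and −0.79. MDH2 IP thus held more of its last-exon counts in coding windows and less in distant 3′ UTR windows in every class of GC, by means of 3 libraries and without a test. The libraries of both groups overlapped in coding windows of 70% GC and over (2.07% to 2.49% in MDH2 IP, 2.09% to 2.31% in IgG IP) and past 1000 nt in windows under 30% GC (3.02% to 3.52% and 3.34% to 3.8%). Without IGF2, the range was 0.08 to 0.59 in coding windows and −0.62 to −0.15 past 1000 nt. Over SMI, the same ratios followed GC in each zone, from −0.40 to 0.94 in coding windows and from −0.73 to 0.79 past 1000 nt.

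**Figure D5:**
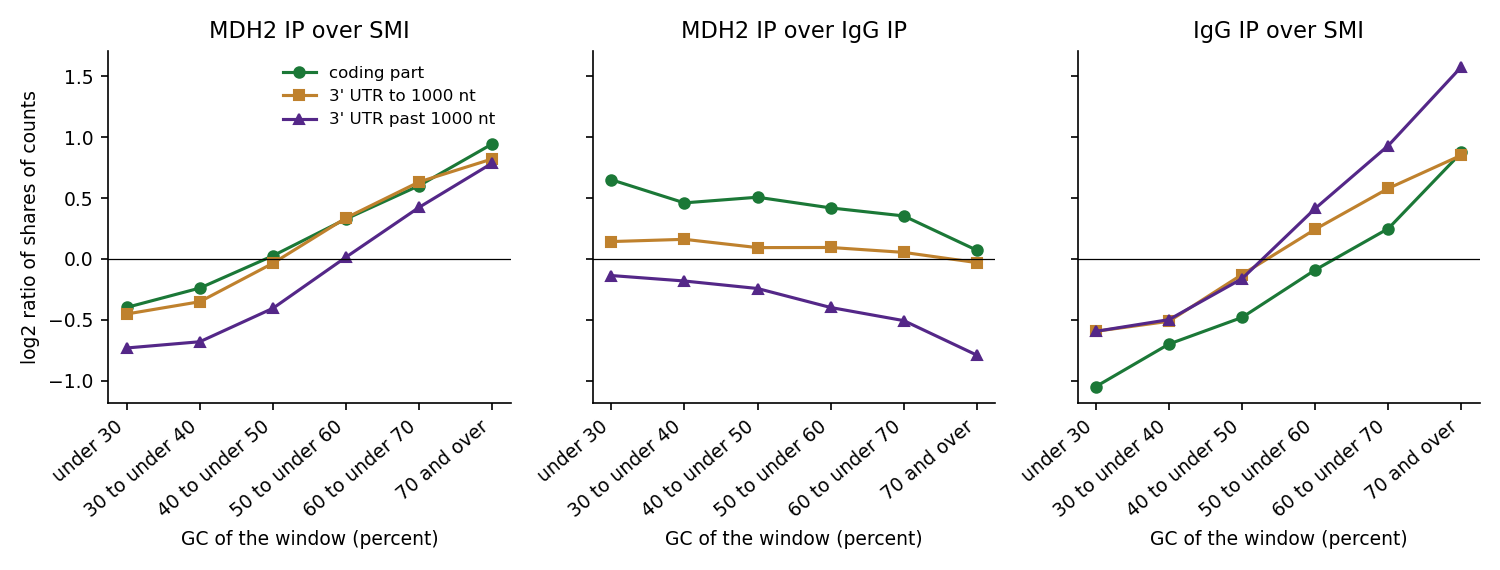
Log2 ratio of the mean share of placed last-exon counts between groups, by GC class of the window, for coding windows, 3′ UTR windows up to 1000 nt past the stop codon and those beyond. For MDH2 IP over IgG IP the lines of the 3 zones lie apart, with coding windows on top (0.07 to 0.65) and those past 1000 nt at the bottom (−0.79 to −0.14), whereas both comparisons with SMI rise with GC in all zones.

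Some last exons were higher in MDH2 IP than in each of both controls, in comparisons that share the MDH2 IP libraries. Ranked by the smaller of both log2 fold changes, the first was CASZ1, a zinc finger transcription factor (2.47 over SMI, 2.52 over IgG IP), though at 2.86, 7.66 and 4.43 CPM in MDH2 IP, 1.5, 0.873 and 0.315 in SMI, and 1.13, 0 and 1.49 in IgG IP. DPP9, a serine peptidase, measured 25.5, 22.5 and 39.1 CPM in MDH2 IP, 8.0, 6.99 and 11 in SMI, and 11.7, 6.39 and 6.69 in IgG IP (1.73 ± 0.27 and 1.82 ± 0.36, SE, edgeR adjusted p = 0.0012 and 0.0059). In each of them all MDH2 IP libraries lay above the other 6. Also among the first 10 were the endocytic adaptor EPS15L1 (1.82 and 3.77), NEURL4 (1.78 and 2.13), the acetyltransferase KAT2A (1.68 and 1.91), PARP6 of the ADP-ribosyltransferases (1.57 and 2.54), PROC, the zymogen of activated protein C (1.52 and 1.75), the repressor CIC (1.5 and 1.39), the lysosomal mannosidase MANBA (1.38 and 2.56) and the deubiquitinase USP11 (1.37 and 2.18). Apart from DPP9 and KAT2A, these measured under 20 CPM in every MDH2 IP library, and their IgG IP values rest on few counts. Among the last exons with more counts, APOE, CLU, HSP90AB1, GIGYF1 and TNRC6A were higher than both controls.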

How the data were processed

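The data were 9 eCLIP libraries of Huh7 cells. The authors trimmed reads with cutadapt, aligned them with STAR to hg38 with GENCODE v23 genes, kept up to 10 alignments, removed PCR duplicates by molecular identifiers, and deposited raw counts of cross-link sites per sliding window of 50 nt with a step of 20 nt (HTSeq is named in the submitters' processing notes). Each replicate has its own column, and 0 sample columns were left unused. A site enters up to 3 windows.

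Gene types, names and positions came from GENCODE v44, which matched 96.6% of 34950 Ensembl identifiers. 1 numbered identifier was left out. The members and gene lists were chosen with earlier results of these data known. Exons are numbered 5′ to 3′, and window numbers run along the whole gene from its lowest coordinate, so the 5 equal stretches were taken strand-aware between the lowest and highest window number of a last exon, not from window 1 as first planned. Zones left out 20310 windows upstream of the canonical last exon in 540 last exons, with 3.79% to 5.56% of the counts. Of 123 pairs of placed windows of different genes with equal counts (at least 20 in all), 116 overlapped in placed coordinates. GC content came from the canonical last exon, which can differ from the highest-numbered one.

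Counts as deposited were tested with edgeR 4.0.16 (quasi-likelihood, TMM, R 4.3.3) where at least 3 of the 6 libraries compared had at least 10 counts, with all windows or all summed features in the fit, only the 2 groups compared, and no block. Window p-values were one-sided and multiplied by how many tested windows overlapped. Sums and the last-against-other-exon interaction were two-sided. All were adjusted by the Benjamini-Hochberg method over the whole table (threshold 0.05, for windows also a log2 fold change of 1 in size). For shares, two-sided exact permutation tests were used. Nothing in the labels ties replicates to separate cultures, so p-values measure only the spread between these samples, which may be technical. All replicate pairs differed by more than sampling noise (chi-square per degree of freedom of at least 3.75). Deviations of equally numbered MDH2 IP and SMI libraries from their group means correlated (r = 0.10, 0.44 and 0.46), so blocked values stand beside that comparison. Those with IgG IP did not all do so.

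On simulated data for MDH2 IP over SMI, the window test recovered 97.5% of 200 windows raised 4-fold among 51105 (6 false calls), the sum test 28.5% at 2-fold and 96% at 4-fold among 35821, and the within-gene test 50% at 0.5-fold and 86% at 0.25-fold among 8102. Folds against groups at 0 used 3 counts over the group and cover counting error only.

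Named last exons were MDH2 and the mRNAs the paper names in its eCLIP results, and, among those with a level above the median, the 8 highest and 8 lowest over SMI, 5 and 5 over IgG IP and 3 and 3 for IgG IP over SMI whose libraries did not overlap. Further ones were the 5 with the most MDH2 IP counts, the 5 enriched windows with the highest log2 fold change, the 5 and 5 (SMI) and 3 and 3 (IgG IP) extremes of the within-gene test with both parts above the median, up to 10 higher than both controls, and per gene list the 2 with the most counts and the extremes. Some of these are not reported here. Alternatives were DESeq2 1.42.0, other filters and thresholds, library totals, a fit of 9 libraries, the replicate block and leaving out each library. Python 3.11.15, pandas 2.3.3, scipy 1.17.1, pysam 0.24.0 and matplotlib 3.10.9 were used.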

Additional observations from a re-analysis of the deposited data

How the results depend on the processing

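Of 1865 values of single named last exons under alternatives, 1692 kept their side of the threshold, 150 lost the call and 23 gained one. No value past the threshold changed sign, whereas 26 values past it in neither fit did. Library totals in place of TMM scaling turned the balance between higher and lower calls for last exons and windows of MDH2 IP over SMI and for windows in both comparisons with IgG IP. Over SMI, enriched windows numbered 79 with DESeq2, 169 with at least 5 counts, 81 at a log2 fold change of 2, 604 with the replicate block and 1803 with library totals, and 21 to 125 without single libraries. Lower windows numbered 573, 2193 and 252 by the first 3 of these and 250 with library totals, and 273 to 824 without single libraries. Higher last exons numbered 436 at a log2 fold change of at least 1, 596 in the fit of 9 libraries, 1647 with the block, 1566 with library totals and 432 to 789 without single libraries. Lower last exons numbered 635, 705, 1891 and 632 in these, and 655 to 983. Relative to the other exons, higher ones numbered 67 with DESeq2, 47 at a log2 difference of 1, 33 with 9 libraries and 72 to 96 without single libraries, and lower ones 1033 and 971 with the latter 2 settings and 1365 to 1739.

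Over IgG IP, enriched windows numbered 2 with at least 5 counts and 359 with library totals, and lower windows 143 with library totals and 163 to 224 without single libraries. Higher last exons numbered 965 with at least 1 count, 858 with the replicate block, 1300 with library totals and 56 to 598 without single libraries, and lower ones 82 with the block, 31 with library totals and 21 to 57. Relative to the other exons, higher ones numbered 128 with 9 libraries, 28 with the replicate block and 9 to 137, and lower ones 105, 17 and 5 to 109. Deviations of equally numbered libraries correlated more weakly for IgG IP, with r = −0.02, 0.19 and 0.23 against MDH2 IP. Against SMI they were −0.006, 0.20 and 0.24. Blocked counts of comparisons with IgG IP are given here alone. For IgG IP over SMI, enriched windows numbered 611 with at least 5 counts, 230 at a log2 fold change of 2, 214 with library totals and 199 to 293 without single libraries. Last exons numbered 129 to 288 higher and 1657 lower with at least 1 count (390 to 898 without single libraries), and relative to the other exons 94 higher with 9 libraries, 11 to 108 higher and 94 to 548 lower. The difference in the last of the 5 stretches between IgG IP and SMI was 0.903 percentage points on the plus and 0.155 on the minus strand. The causes were not tested. The few IgG IP counts limit all comparisons with it, and zones rest on the 48.8% of last exons that could be placed.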
